A study of Mus musculus with 2 samples.

Results

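The miR-99 and miR-100 family comprises the mouse hairpins Mir99a, Mir99b and Mir100, chosen by their gene names and not by a cut on any measured value. Earlier results of these data were known when the choice was made. These hairpins are 3 of 2201 annotated miRNA hairpins. Small RNA was sequenced from Dicer -/- cells, called null here, and from Dicer f/f cells, which the labels count as wild type, with 1 library per genotype. Both came from immortalized monoclonal lines of mesenchymal stem cells (MSCs), fibroblasts that live in the bone marrow of adult mice. The strain was C57BL/6, and the cells were harvested close to confluence from alpha-MEM that contained 10% fetal bovine serum with antibiotics. Neither how the null line was made nor whether both lines go back to the same founder is stated in the labels. RNA of 15 to 50 nt was cut from a gel before library construction.

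There were 6291599 reads in null (909932 distinct sequences) and 9943989 reads in f/f (410792 distinct sequences), all 5 to 36 nt long. Levels are given as CPM, read counts scaled to the same total in both libraries. A species without a read could have been present at up to 0.477 CPM in null and 0.302 CPM in f/f. miRNA hairpins took 2.61% of null reads and 59.7% of f/f reads. Fragments of the Dicer1 mRNA had 23 reads in null and 2 in f/f, and such fragments do not check the deletion. The 9 mesenchymal marker hairpins, among them Mir22, Mir143 and Mir145a, were all detected in both libraries, and they summed to 5124 CPM in null and 212514 CPM in f/f. All 4 annotated haematopoietic marker hairpins had reads in both libraries and summed to 12.6 CPM in null and 134 CPM in f/f. Of these sums, miR-155-5p held 1.43 CPM in null and 129.7 CPM in f/f. Of the 7 epithelial ones, 6 had reads in null and 5 in f/f, with 45.3 CPM in null and 3.72 CPM in f/f. The endothelial marker Mir126a had 2.07 CPM in null and 33.5 CPM in f/f. Their part in the results was not tested. Since each genotype had 1 library, the spread between replicates is unknown and no p-value is given. Intervals are 95% intervals of counting error only, because reads without molecular identifiers are not independent molecules. Fewer cells that make a miRNA and less of it per cell cannot be told apart in such bulk RNA.

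A miRNA gene is transcribed as a long primary RNA, from which the nuclear enzyme Drosha releases a hairpin. Drosha thereby sets the 5′ end of the strand on the left side of the hairpin (the 5p arm). In the cytoplasm Dicer removes the loop, which sets the 3′ end of the 5p arm and the 5′ end of the 3p arm. The bases called the seed then pair with target mRNAs in an Argonaute protein. The family is an old one in animals, is kept beside let-7 and miR-125 genes, and is known for lowering growth factor and mTOR signalling through targets such as Mtor, Igf1r and Smarca5.

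The mature 5p sequences are shown because they carry the shared seed and the few bases that tell the members apart. The sequences are those of RefSeq (GRCm38.p6), and capitals mark bases 2 to 8, the seed.
miR-99a-5p: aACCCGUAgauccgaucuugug
miR-99b-5p: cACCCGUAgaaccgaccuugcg
miR-100-5p: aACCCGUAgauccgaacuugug
The seed ACCCGUA occurred in 3 of the 1738 mature mouse miRNAs of that table, which were these members. Counted from the 5′ end and written with the first-named miRNA's base first, miR-99a-5p and miR-100-5p differ by U16A alone and share 21 of 22 bases. miR-99a-5p and miR-99b-5p share 18 bases and differ by A1C, U11A, U16C and U21C.

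In RefSeq the opposite arms have seeds of their own, shared by miR-99a-3p and miR-99b-3p but not by miR-100-3p. Of the 67 f/f reads of miR-100-3p, 44 begin downstream of the RefSeq 5′ end shown, so their seed is not the one in capitals.
miR-99a-3p: cAAGCUCGuuucuaugggucu
miR-99b-3p: cAAGCUCGugucuguggguccg
miR-100-3p: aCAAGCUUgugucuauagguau

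The hairpins are shown because the reads of null cells run past the mature 3′ end into them. Capitals mark the mature arms in the GENCODE M21 hairpins, written as DNA.
Mir99a: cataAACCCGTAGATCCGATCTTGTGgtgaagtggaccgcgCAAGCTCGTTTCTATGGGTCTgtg
Mir99b: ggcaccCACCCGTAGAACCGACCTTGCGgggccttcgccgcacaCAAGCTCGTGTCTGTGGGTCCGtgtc
Mir100: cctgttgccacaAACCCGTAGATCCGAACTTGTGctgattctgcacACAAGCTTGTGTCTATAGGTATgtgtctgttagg
All 3 lie on the plus strand of GRCm38. Mir99a (chr16:77598936-77599000) lies within an intron of Mir99ahg, a noncoding gene, opposite an intron of Gm11146. Mir99b (chr17:17830188-17830257) lies in an intron of the protein-coding gene Spaca6. Mir100 (chr9:41531425-41531504) lies in introns of the noncoding genes 3110039I08Rik and Gm49317, opposite an exon of Gm48742. The 91 distinct member sequences of 18 nt or more each fitted a single hairpin and no other annotated gene, so no read was shared between members.

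In null cells the family was lower as a whole and the composition of what was left differed. All member reads of 18 nt or more summed to 912 in null and 35094 in f/f, or 145 CPM in null and 3529 CPM in f/f. This was 24.3-fold lower in null (22.8 to 26.0), a log2 ratio of -4.61. miR-99a took 90.2% of the family's null reads (88.1 to 92.1) and 55.2% of its f/f reads (54.6 to 55.7). miR-99b took 7.02% in null (5.45 to 8.87) and 40.3% in f/f (39.8 to 40.8). miR-100 took 2.74% in null (1.78 to 4.02) and 4.55% in f/f (4.33 to 4.77). These shares hold for reads of 18 nt or more. With the shorter reads from base 13 described further on, an alternative chosen after seeing the data, miR-100 took 23.04% in null and 34.5% in f/f, and miR-99a 71.5% in null and 37.9% in f/f. In f/f most of these shorter reads are a 10-nt sequence that other annotated transcripts also hold, so they cannot be assigned to Mir100. How the deposited reads were trimmed is not described in the sources used here, and its part in the short miR-100 reads was not tested. The 5p arms held nearly all reads of both libraries, 98.2% in null and 98.8% in f/f.

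miR-99a-5p had 821 reads in null and 19343 in f/f, or 130.5 CPM in null and 1945 CPM in f/f, and was 14.9-fold lower in null (13.9 to 16.004). miR-99b-5p had 50 reads in null and 13784 in f/f, or 7.95 CPM in null and 1386 CPM in f/f, and was 174-fold lower (132 to 235). These neighbours in the f/f order, at ranks 47 and 55 of 1044 miRNA species, were thus lowered to unequal extents, and their intervals did not overlap. miR-100-5p had 25 reads in null and 1530 in f/f, or 3.97 CPM in null and 154 CPM in f/f, and was 38.7-fold lower (26.1 to 60.0). Its f/f rank was 134. For reads of 18 nt or more the order in both libraries was miR-99a-5p, miR-99b-5p, miR-100-5p. With the reads from base 13 miR-100-5p stands above miR-99b-5p in both, at 43.9 against 8.26 CPM in null and 1803 against 1406 CPM in f/f. In f/f this second order rests on a 10-nt sequence with 16240 reads, which 54 other annotated transcripts hold. That sequence cannot be assigned to Mir100 and is shorter than the RNA cut from the gel. Neighbours in the first order differed beyond counting error: the Poisson intervals of the read counts of miR-99b-5p and miR-100-5p were 37.1 to 65.9 and 16.2 to 36.9 in null, and those of f/f did not overlap either. The spread between cultures is not known.

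The 3p arms, usually the discarded strand of these hairpins, had 16 reads in null and 437 in f/f and were 17.3-fold lower in null (10.5 to 30.5). miR-99b-3p made up most of them, with 14 reads in null and 358 in f/f (16.2-fold lower, 9.52 to 29.9). miR-100-3p had 0 reads in null and 67 in f/f and was at least 14.1-fold lower, taking 3 reads as the floor of the null library. miR-99a-3p had 2 reads in null and 12 in f/f, too few to tell its ratio of 0.263 from 1 (0.0286 to 1.18).

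A background was taken from the 300 miRNA species that reached 100 f/f reads. In null 90.3% of them were lower by more than 2-fold, 76% by more than 10-fold and 29% by more than 100-fold. Of the 6 arms, 4 passed this minimum, and all 4 were more than 10-fold lower, while miR-99b-5p was the single one past 100-fold. The median log2 ratio of all 300 was -5.18, with quartiles at -6.92 and -3.37. miR-99a-5p at -3.90 and miR-99b-3p at -4.02 lay above the median, since 68.7% and 67.3% of the species had lower ratios. miR-100-5p at -5.28 lay close to it, with 49% of the species lower, and miR-99b-5p at -7.45 lay near the lower quartile, with 18.7% lower. The family's fall was thus of the size common to miRNAs in these libraries. Scaled to reads that match an annotated transcript, every log2 ratio is 1.75 higher, and scaled to snoRNA and snRNA reads 2.10 lower. All members stay lower in null under both.

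**Figure D1:**
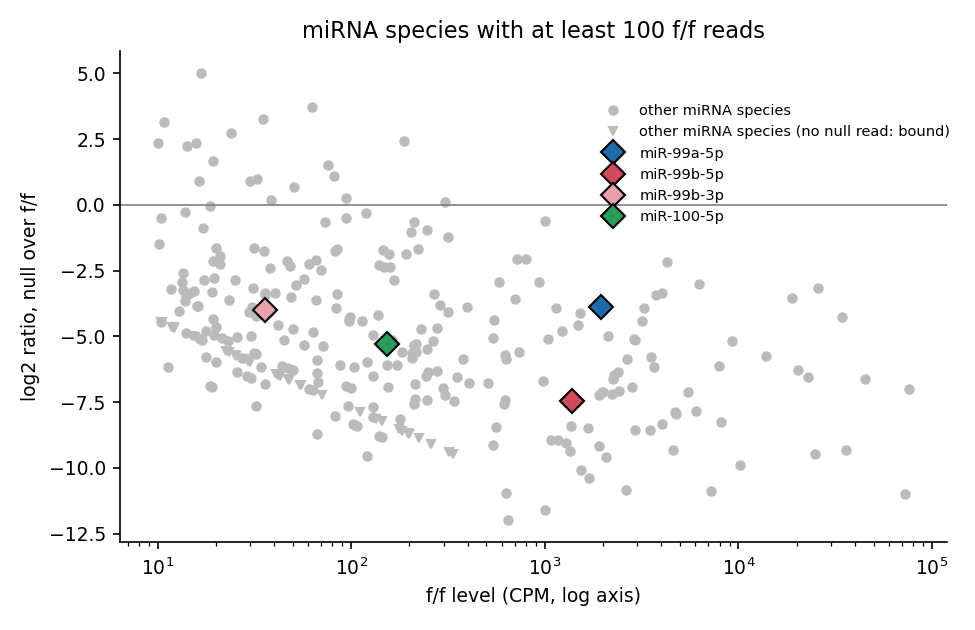
Each point is 1 of the 300 background species (100 f/f reads or more), by f/f level (CPM, log axis) and log2 ratio of null over f/f, and triangles are bounds for species without a null read. miR-99a-5p (-3.90) and miR-99b-3p (-4.02) lie above the median of -5.18, miR-100-5p (-5.28) beside it and miR-99b-5p (-7.45) well under it.

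The species nearest to each member in f/f level differed widely among themselves. The 5 nearest to miR-99a-5p were between 138-fold (miR-191-5p) and 763-fold (miR-497-5p) lower in null, so miR-99a-5p fell less than each of them. The 5 nearest to miR-99b-5p ranged from 17.2-fold (miR-26b-5p) to 652-fold (miR-29b-3p) lower. The 5 nearest to miR-100-5p ranged from 3.63-fold (miR-30e-3p) to 122-fold (miR-324-5p) lower. These sets hold 5 species each and carry no test.

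The remaining miR-99a was mostly of another length. Of the 821 miR-99a-5p reads in null, 81.1% were 24 nt or longer (78.3 to 83.7), against 0.0258% of the 19343 reads in f/f. miR-100-5p had 15 of 25 such reads in null, 60% (38.7 to 78.9), and 0 of 1530 in f/f, which allows up to 0.241%. miR-99b-5p had 5 of 50 in null, 10% (3.33 to 21.8), and 1 of 13784 in f/f. The null intervals of miR-99a-5p and miR-99b-5p did not overlap. Over the 191 background species with at least 10 null reads the median share was 66.7%, and 71.2% of them had a smaller share than miR-99a-5p, 45.5% than miR-100-5p and 9.95% than miR-99b-5p.

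**Figure D2:**
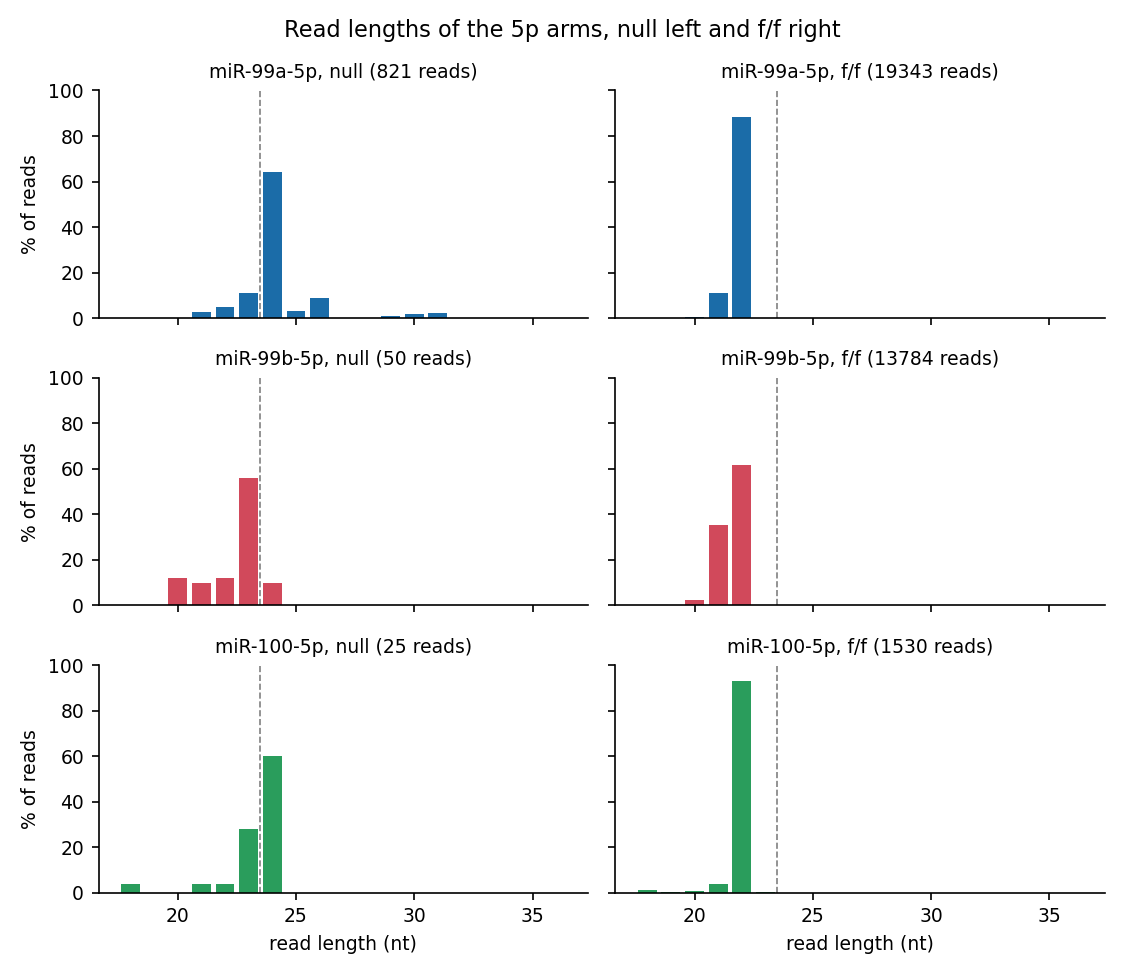
Bars give the percentage of the reads of each 5p arm at each read length (nt) in null (left column) and f/f (right column), and the dashed line separates reads up to 23 nt from longer ones. The main length of miR-99a-5p was 24 nt in null and 22 nt in f/f, while miR-99b-5p peaked at 23 nt in null and 22 nt in f/f.

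Split at this length, the members looked more alike. Among reads of 18 to 23 nt, miR-99a-5p had 155 reads in null and 19338 in f/f and was 78.9-fold lower in null (67.4 to 93.1). miR-99b-5p had 45 reads in null and 13783 in f/f, 194-fold lower (145 to 266), and miR-100-5p had 10 in null and 1530 in f/f, 96.8-fold lower (52.5 to 202). The interval of miR-100-5p overlapped those of both others, but those of miR-99a-5p and miR-99b-5p still did not overlap. In this window 40.3% of the 300 species were more than 100-fold lower, and the median log2 ratio was -6.10. Reads of 24 nt or more went the other way. The 5p arms together had 686 of them in null and 6 in f/f, 181 times the f/f level (82.6 to 494). Of these, miR-99a-5p gave 666 in null and 5 in f/f.

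**Figure D3:**
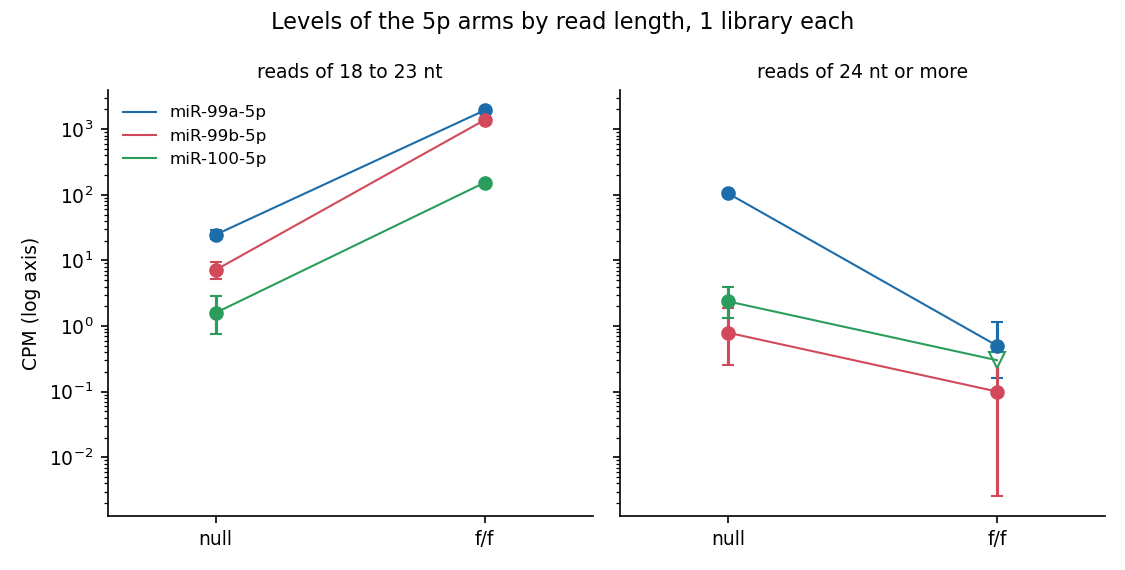
Points give the level of each 5p arm (CPM, log axis) in null and f/f for reads of 18 to 23 nt (left) and of 24 nt or more (right), with 1 library each, exact Poisson 95% intervals and an open triangle for the limit a count of 0 allows. In the short window all 3 were lower in null, and in the long window miR-99a-5p had 106 CPM in null and 0.503 CPM in f/f.

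The single sequences show where these reads end. Lower case is the mature form of f/f cells and capitals are the hairpin bases that follow it.
miR-99a-5p, 22 nt: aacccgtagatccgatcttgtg
miR-99a-5p, 24 nt: aacccgtagatccgatcttgtgGT
miR-99a-5p, 26 nt: aacccgtagatccgatcttgtgGTGA
miR-99b-5p, 23 nt: cacccgtagaaccgaccttgcgG
miR-100-5p, 24 nt: aacccgtagatccgaacttgtgCT
The 22-nt form of miR-99a-5p had 39 reads in null and 17121 in f/f, or 4.75% of the arm in null and 88.5% in f/f. The 24-nt form had 522 reads in null and 5 in f/f, or 63.6% of the arm in null. The 26-nt form had 65 reads in null and 0 in f/f, and forms of 30 and 31 nt had 16 and 20 in null and 0 each in f/f. No null read of 27 nt and 1 of 28 nt began at the mature 5′ end, so that the null reads of 21 to 26 nt were set apart from those of 29 to 31 nt.

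miR-99b-5p in null was centred on the 23-nt form, which had 28 reads in null and 7 in f/f, while its 22-nt form had 6 in null and 8513 in f/f. miR-100-5p had 11 reads of its 24-nt form in null and 0 in f/f, and 1 read of its 22-nt form in null and 1426 in f/f. All 3 members thus extended past the mature 3′ end in null, by 2 bases most often in miR-99a-5p and miR-100-5p and by 1 base in miR-99b-5p.

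The 5′ ends were mostly the same in both libraries. Of the 5p reads, 95.8% in null and 98.2% in f/f had the commonest f/f 5′ end, while 5.92% in null and 79.5% in f/f ended at the commonest f/f 3′ end. Reads that ended beyond it made up 91.7% of miR-99a-5p in null and 0.0724% in f/f. For miR-100-5p they were 23 of 25 reads in null and 9 of 1530 in f/f. By the predicted fold of the hairpin (RNAfold), 140 of the 821 miR-99a-5p reads in null ended inside the terminal loop, 17.1% (14.5 to 19.8), against 0 of 19343 in f/f. On the other arm the null reads differed at their 5′ end. None of the 14 miR-99b-3p reads in null, but 341 of 358 in f/f (95.3%), had the commonest 5′ end of f/f. The null reads of that arm began up to 4 bases upstream of it, on the loop side.

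The bases next to the mature form also differed in kind. Among reads that held the whole 22-nt form of miR-99a-5p and 1 more base, that base was the hairpin's own G in 77 reads in null and 8 in f/f. It was A in 0 reads in null and 557 in f/f, and U in 1 read in null and 810 in f/f. Bases that do not follow the hairpin thus made up 1.28% of 78 such reads in null and 99.4% of 1429 in f/f. For miR-99b-5p they were 0 of 28 reads in null and 99.3% of 954 in f/f, and for miR-100-5p 0 of 7 in null and 93.75% of 112 in f/f. Few 22-nt reads were left in null to carry such a base, 39 for miR-99a-5p against 17121 in f/f. The shares also cover only the first base past the 22-nt form. Reads that fitted miR-99a-5p only with their last 3 bases left free numbered 92 in null and 1643 in f/f, beside 821 and 19343 exact reads. A loss of untemplated bases in null is thus not shown. A and U are the bases that terminal nucleotidyl transferases are known to add to RNA 3′ ends. These reads have an untemplated base and are not in the levels above, which required a match of the whole read.

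Most of the reads that fit miR-100-5p were shorter than the length used for levels. Among reads of 10 to 17 nt equal to the end of the mature form, miR-100 had 21 in null and 16283 in f/f, or 3.34 CPM in null and 1637 CPM in f/f, 491-fold lower in null (321 to 793). miR-99a had 3 such reads in null and 436 in f/f, and miR-99b 2 in null and 229 in f/f. Reads of the same lengths equal to the beginning of the mature form were 0 in null and 4 in f/f for the whole family. Nearly all of the miR-100 reads were a single sequence, its last 10 bases, shown beside the same piece of miR-99a-5p.
miR-100-5p, bases 13 to 22: cgaacttgtg
miR-99a-5p, bases 13 to 22: cgatcttgtg
The miR-100 piece had 21 reads in null and 16240 in f/f. It was 0.108% of all 10-nt reads in null, at rank 92 among 10-nt sequences, and 53.1% of the 30598 10-nt reads in f/f, at rank 1. So short a sequence is not unique: besides Mir100 it occurs in 54 other annotated transcripts. It is also shorter than the RNA of 15 to 50 nt cut from the gel, and how such reads arose was not tested. The miR-99a piece had 3 reads in null and 407 in f/f.

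Among the 156 species that reached 1000 f/f reads, reads equal to the end outnumbered the commonest mature form in 1.28%, that is in 2 species. miR-100-5p was 1 of them, at 11.4 end reads per mature read, and miR-29a-3p the other, at 14.7. The species that came next, miR-455-3p, was at 0.342. miR-99b-5p (0.0269) and miR-99a-5p (0.0255) lay at the median of 0.0262, so the excess was not shared within the family.

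Longer pieces that begin at base 13 and run on into the hairpin differed between null and f/f much as full-length miR-99a-5p did. Capitals again mark bases beyond the mature end.
miR-100-5p from base 13, 12 nt: cgaacttgtgCT
miR-100-5p from base 13, 16 nt: cgaacttgtgCTGATT
The 12-nt form had 109 reads in null and 4 in f/f, and 4 other annotated transcripts hold it. The 11-nt form, with 64 reads in null and 154 in f/f, occurs in 15 others. The 16-nt form, which no other annotated transcript holds, had 27 reads in null and 0 in f/f. In sum, 251 reads in null and 16399 in f/f of 10 to 17 nt began at base 13 of miR-100-5p and followed the hairpin (41.3-fold lower in null, 36.5 to 47.0). Of them, 91.6% in null (87.5 to 94.7) and 0.970% in f/f (0.825 to 1.13) ran beyond the mature end. For miR-99a-5p such reads numbered 33 in null and 407 in f/f, of which 30 in null and 0 in f/f ran beyond it.

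The untemplated bases had the same pattern as well. Of the 11-nt reads made of the miR-100 piece and 1 more base, 64 in null and 154 in f/f carried the hairpin's C. Those with A were 0 in null and 824 in f/f, and those with U were 0 in null and 445 in f/f. The 10-nt piece itself had only 21 reads in null, against 16240 in f/f. Reads that begin at base 13 made up 90.9% of the reads that fit miR-100-5p in null (86.9 to 94.1) and 91.5% in f/f (91.0 to 91.9), counting these and reads of 18 nt or more. For miR-99a-5p the share was 3.86% in null (2.67 to 5.38) and 2.06% in f/f (1.87 to 2.27), and for miR-99b-5p 3.85% in null and 1.42% in f/f. The share of miR-100-5p had intervals that overlapped between null and f/f. Neither the trimming nor the filters that made the deposited reads are described in the sources used here, and the origin of the 10-nt form was not tested.

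**Figure D4:**
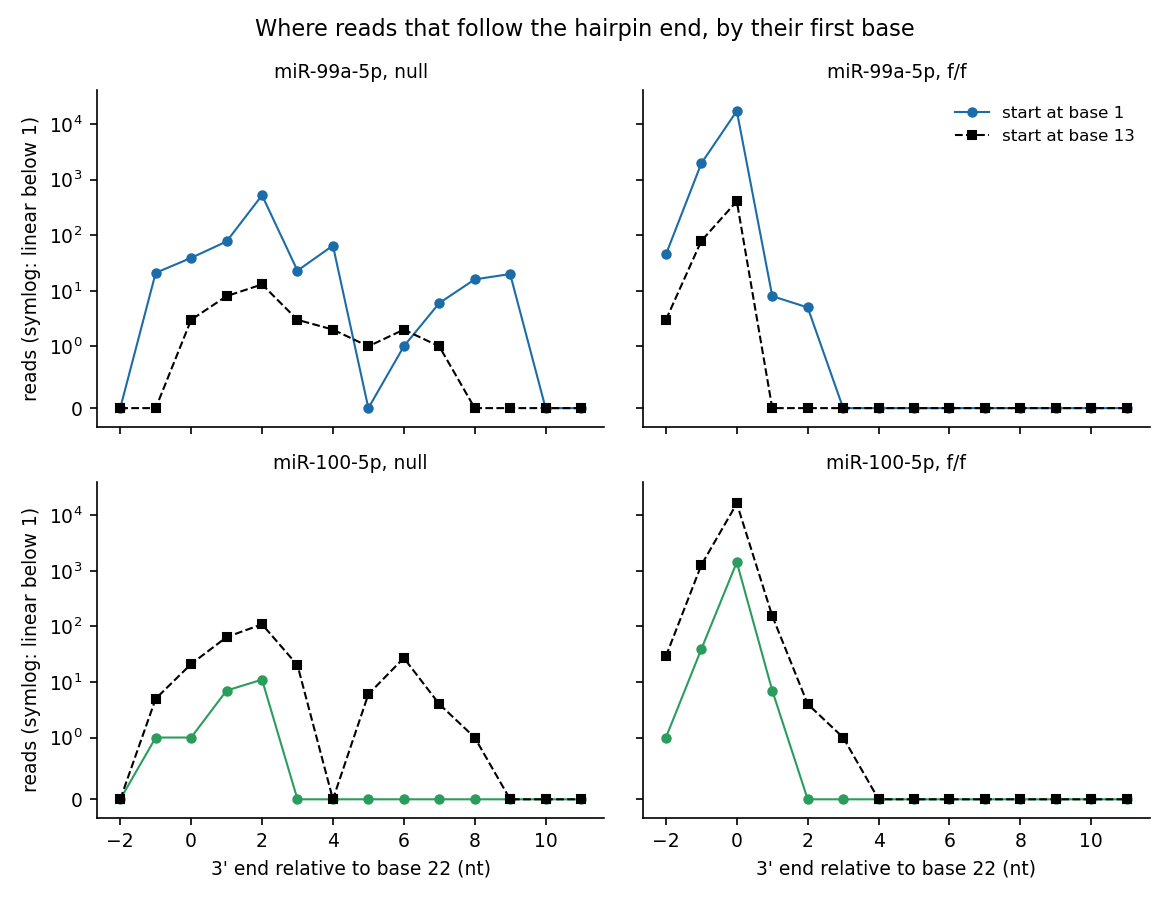
Lines give the number of reads (symmetric log axis, linear under 1) by the position of the 3′ end relative to base 22 (nt) in null (left) and f/f (right), for reads that begin at base 1 (coloured) and at base 13 (black, dashed). Reads from base 13 outnumber those from base 1 in miR-100-5p and not in miR-99a-5p, and from either start the null reads peak 2 bases beyond base 22 and the f/f reads at it.

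With the reads from base 13 added, the order of the members changed as given with the levels. miR-100-5p was then 41.1-fold lower in null (36.5 to 46.5), against 38.7-fold without them. miR-99a-5p then had 136 CPM in null and 1986 CPM in f/f. The f/f level of miR-100-5p was 154 CPM without these reads, so the count of full-length reads puts it far under the other members and the larger count puts it between them. Of the 16399 f/f reads added, 16240 were 10 nt long, shorter than the RNA of 15 to 50 nt cut from the gel and not unique to Mir100. The larger count is thus not established as a level of miR-100-5p. The ratio of null to f/f hardly moved.

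Full-length miR-100-5p reads with a substitution at bases 4 to 14 were about as common as those of miR-99a-5p, although its exact form was not. The 22-nt f/f reads that differ from the mature form at 1 of bases 4 to 14 numbered 830 for miR-99a-5p, 806 for miR-99b-5p and 787 for miR-100-5p. The exact 22-nt forms had 17121, 8513 and 1426 f/f reads, so these reads came to 4.85%, 9.47% and 55.2% of the exact form. The commonest of them, C5A, had 299 f/f reads in miR-99a-5p, 178 in miR-99b-5p and 293 in miR-100-5p. G9U had 117, 111 and 125. Outside these bases miR-100-5p was low. At bases 1 to 3, the substituted f/f reads were 218, 242 and 8, and at bases 15 to 22 they were 220, 356 and 44, each in the order miR-99a-5p, miR-99b-5p, miR-100-5p. The boundaries of these stretches were chosen after the values were seen. Null held at most 6 such reads per member and stretch.

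**Figure D5:**
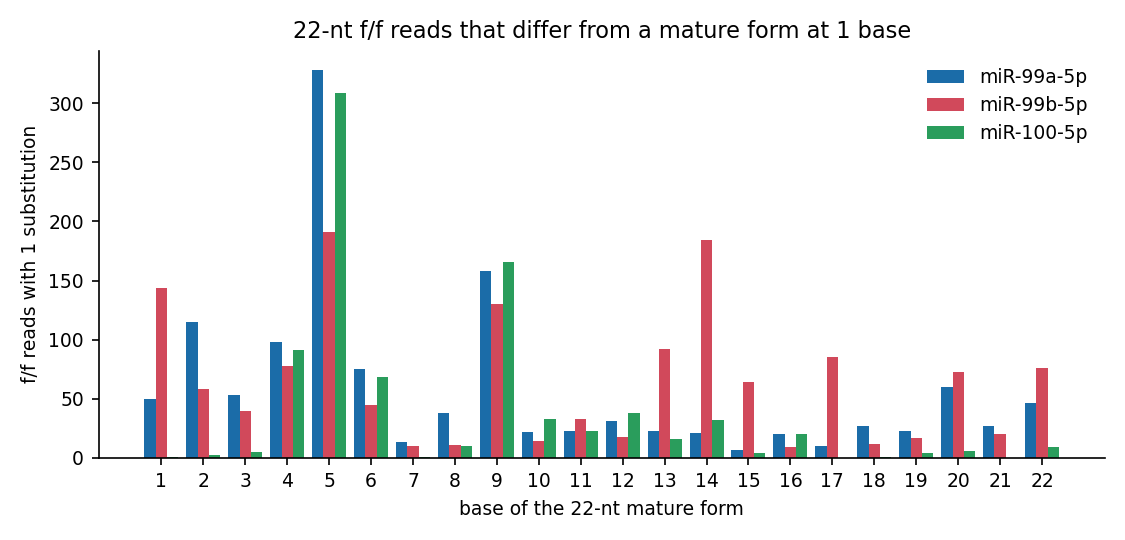
Bars give the number of 22-nt f/f reads that differ from the mature form of each member at exactly 1 base, by position from the 5′ end. The change at base 16 that turns miR-99a-5p into miR-100-5p or the reverse is left out. Over bases 4 to 14 miR-100-5p (787 reads) is close to miR-99a-5p (830), and at bases 1 to 3 it has 8 reads against 218.

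Each member is encoded near a let-7 and a miR-125 hairpin, and the ratios within a cluster were often far apart. Mir99b lies 94 nt before Mirlet7e and 554 nt before Mir125a. let-7e-5p had 1344 reads in null and 32478 in f/f (15.3-fold lower in null, 14.5 to 16.2), of which 83.7% in null were 24 nt or longer, against 174-fold and 10% for miR-99b-5p. miR-125a-5p was 89.1-fold lower (76.3 to 105), and 73.3% of its reads in null and 53.0% in f/f were 24 nt or longer. Since most f/f reads of miR-125a-5p were already that long, its share does not measure extension past the f/f form. Mir99a lies 656 nt before Mirlet7c-1, whose 3p arm had 52 reads in null and 72 in f/f, a ratio of 1.14 (0.783 to 1.65). Of the reads of that 3p arm, 80.8% in null and 0% in f/f were 24 nt or longer. At 18 to 23 nt its ratio was 0.220 (0.101 to 0.427). The 5p arm of let-7c, which also comes from Mirlet7c-2, was 128-fold lower in null (124 to 132), against 14.9-fold for miR-99a-5p. miR-125b-2-3p, whose hairpin lies 47272 nt from Mir99a, was 8.89-fold lower (5.76 to 14.4), with an interval that overlapped that of miR-99a-5p. Mir100 lies 5211 nt before Mirlet7a-2 and 50421 nt before Mir125b-1. miR-125b-1-3p was 170-fold lower (113 to 269), and the 5p arm of let-7a, shared with Mirlet7a-1, 53.3-fold (50.7 to 55.9). The interval of let-7a lay within that of miR-100-5p (26.1 to 60.0), whereas that of miR-125b-1-3p lay apart from it.

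Host gene fragments were counted where they fitted that gene alone. Mir99ahg had 7 reads in null and 0 in f/f, 3110039I08Rik 15 in null and 8 in f/f, and Gm49317 none in either. Spaca6, the host of Mir99b, had 2984 reads in null and 337 in f/f. With reads that also fit other genes, Spaca6 had 3194 in null and 23045 in f/f, the opposite order of the libraries, so no direction is given for it. The Mir125a hairpin also lies within the bounds of Spaca6, and miR-125a-5p had 161 reads in null and 22680 in f/f. Its part in the larger Spaca6 count was not tested.

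The library also holds fragments of mRNAs, which are not a measure of mRNA level. Of 16 genes known as targets of the family, 13 had at least 10 reads of that gene alone in either library, and all 13 were more than 2-fold higher in null. The background was 98.9% of 5005 protein-coding genes, so the count is not particular to the targets. Mtor, the kinase that controls cell growth, had 30 reads in null and 2 in f/f. Igf1r, a growth factor receptor, had 47 in null and 0 in f/f, at least 24.8-fold higher by reads of that gene alone. With reads that also fit other genes, Igf1r had 92 in null and 70 in f/f. Ago2, the Argonaute protein that holds miRNAs, had 107 in null and 7 in f/f, and Smarca5, a chromatin remodeller, 52 in null and 12 in f/f. Bmpr2, a BMP receptor, had 84 in null and 4 in f/f. The 13 had a median ratio of 15.8 and the 5005 genes one of 10.3, with genes at 0 in f/f entered at their bound. In sum, the 16 targets had 455 reads in null and 40 in f/f. With reads that also fit other genes, the sum was 1674 in null and 557 in f/f. Ago2 then had 237 in null and 72 in f/f, and Smarca5 435 in null and 83 in f/f.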

How the data were processed

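Small RNA libraries of 1 null and 1 f/f MSC line were used. The authors deposited raw counts, a table per library of read sequences and how often each occurred, with no names or positions. The genome build was mm9, per the submitters' processing notes. For the trimming and any filters, no tool is given in the sources used here. RNA was extracted with Qiazol and size-selected on a 15% denaturing gel, per the labels' protocols.

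Groups were taken from the genotype label. Reads of 18 nt or more were matched in sense and without mismatch to GENCODE M21 transcripts (GRCm38), and arms were set by the hairpin midpoint. Reads of 10 to 17 nt were compared with the beginning, the end and the continuation of the mature forms. A share has an exact Clopper-Pearson interval, a count an exact Poisson interval and a ratio the exact conditional interval of 2 counts. A count of 0 was set to a floor of 3 reads. Background species joined hairpins that share their commonest f/f read. Sequences are from RefSeq and GENCODE, and all 6 mature arms were found. Python 3.11.15, numpy 2.4.6, scipy 1.17.1, matplotlib 3.10.9 and RNAfold 2.7.2 were used, and the matching was tested on simulated reads.

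The members and lists were chosen with earlier results of these data known. Named were all arms of the 3 hairpins, their commonest sequences, the cluster neighbours, the host genes, 16 target mRNAs and the 5 species nearest in f/f level. Substitutions, reads from base 13 and miR-29a-3p were added once their values were known. The alternatives varied the scale, the length window, the copy number, the matching rule and the minimum of f/f reads.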

Additional observations from a re-analysis of the deposited data

Results flagged for a closer look

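The 10-nt sequence equal to the last 10 bases of miR-100-5p had 21 reads in null and 16240 in f/f. It lies outside the reads used for levels, which were 18 nt or longer, and was picked out because its f/f count is far above the 3 reads that a count of 0 allows. In f/f it outnumbered the exact 22-nt miR-100-5p, which had 1 read in null and 1426 in f/f. It fits the Mir100 hairpin and 54 other annotated transcripts, so that no single read of it can be assigned. It is also shorter than the RNA of 15 to 50 nt cut from the gel. Its origin was not tested.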

How the results depend on the processing

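No setting reversed a direction. The values here are log2 ratios of null over f/f. For the family (-4.61) they were -2.85 per transcript-matching reads, -6.71 per snoRNA and snRNA reads, -4.47 per reads of 18 nt or more, -6.66 at 18 to 23 nt, -4.84 at 20 to 24 nt, -4.46 with 1 mismatch and -4.78 with reads from base 13. In the same order of settings, miR-99a-5p (-3.90) had -2.14, -6.00, -3.76, -6.30, -4.16 and -3.72, the last with 1 mismatch. miR-99b-5p (-7.45) had -5.69 per transcript-matching reads and -9.55 per snoRNA and snRNA reads. miR-100-5p (-5.28) had -3.52 and -7.38 on these scales and -6.60 at 18 to 23 nt, and the 3p arms (-4.11) had -2.36, -6.22 and -4.93. The truncated forms (-8.69) had -9.53 per reads of 10 to 17 nt. They had -6.03 at 13 to 17 nt, at 15 to 17 nt and for ends found in no other RNA. These last settings kept the same reads, 1 in null and 103 in f/f, so they are not separate alternatives and rest on 1 null read.

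The f/f share of reads at 24 nt or longer was 0.468% with the last 3 bases free, against 0.0256%. The null share of 5p reads at the f/f 5′ end was 90% at 18 to 23 nt, against 95.8%. With at least 1000 f/f reads, 150 of 156 species were more than 2-fold lower, against 271 of 300. With reads from base 13 miR-99a took 71.5% of the family in null and 37.9% in f/f, miR-99b 27.5% in f/f, and miR-100 23.04% in null and 34.5% in f/f. In f/f most of the added reads are the 10-nt miR-100 piece, which is not unique to Mir100. The other 32 alternative values moved by less than their intervals or, for counts, less than 1.5 times. The planned ratio of reads shared by miR-99a-5p and miR-100-5p has no value, since no exact read of 18 nt or more was shared; with 1 mismatch 0 null and 74 f/f reads were. No paired analysis was possible because each genotype had 1 library, and for the same reason no library could be left out. The 50 and 25 null reads of miR-99b-5p and miR-100-5p limit their shares most.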

Other observations

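miR-29a-3p, which is no member of the family, was the other species whose end reads outnumbered its mature form. Its reads equal to the end numbered 18 in null and 27628 in f/f, of which the 11-nt form had 18 in null and 27071 in f/f, against 1878 f/f reads of the commonest mature form. This 11-nt form, too, is shorter than the RNA cut from the gel. A further set of short forms was common to the whole family. The 16-nt piece from base 6 to base 21 had 3 reads in null and 131 in f/f for miR-99a-5p, 0 in null and 420 in f/f for miR-99b-5p, and 0 in null and 98 in f/f for miR-100-5p. No read of 10 to 17 nt that ends within the mature form began at bases 9 to 12 of any member, in either library.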
